A study of Homo sapiens with 4 samples.

Results

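NR3C1 encodes the glucocorticoid receptor (GR) and DNMT3A encodes a DNA methyltransferase, and both genes entered the cells on transfected vectors. The sites described here were all distinct cytosines of the deposited BisChIP-seq tables for which NR3C1 or DNMT3A was named as the nearest gene. They numbered 8 of 15100 cytosines, 4 for each gene, and gave 12 of the 15177 values over all libraries. Six-base half-sites of the GR response element held 6 of these cytosines, in 3 hexamers, and CACGTG E-boxes held the other two.

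BisChIP-seq treats immunoprecipitated DNA with bisulfite, so that each read of a cytosine counts as methylated or converted, and it was applied here to HEK-293T, an established human embryonic kidney cell line. All cells carried DNMT3A-pLX304, together with GR-pCMV14 in the GR experiment or with BMAL1-pCMV14 and CLOCK-pCMV14 in the other, and the factors on pCMV14 ended in a 3X Flag tag. Only the GR cells received dexamethasone, a GR ligand, at a final 4 nM and with a labelled time of 24 h. Each experiment gave 1 anti-Flag library, called the GR or the BMAL1-CLOCK library here, and 1 IgG control, so no value has a replicate error, and every test below compares the reads of libraries or sites, not conditions. Reads from a vector and reads from the chromosome cannot be told apart in these tables. Nor can a methylated cytosine be told from one that bisulfite failed to convert, and both count as methylated below.

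GR is a ligand-bound receptor of the nuclear receptor family that moves to the nucleus and binds response elements built from a pair of hexameric half-sites. DNMT3A places new methyl groups on DNA, mostly at CpG and, to a lesser degree, at other cytosines. The half-site cytosines studied here are not in a CpG, and non-CpG methylation is low in most somatic cells.

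The hexamers are shown because every NR3C1 and DNMT3A value of the GR libraries came from them. The measured cytosine, the fifth base of the half-site and of its complement, is in capitals, and the 2 cytosines of a hexamer lie 3 bp apart on opposite strands.
Half-site strand: agaaCa
Complement strand: tgttCt
In hg18 coordinates, the NR3C1 hexamer spans chr5:142760098-142760103 with the half-site on the minus strand, the strand on which RefSeq (GRCh38.p14) places both genes. The cytosines of this hexamer lie 2396 and 2393 bp from the nearest TSS. The first DNMT3A hexamer, at chr2:25323062-25323067, also has the half-site on the minus strand, at 5621 and 5618 bp. The second, at chr2:25320554-25320559, has the half-site on the plus strand, at 8126 and 8129 bp. The deposited distances carry no sign, but those of the 2 DNMT3A hexamers, which are 2508 bp apart, point to a single TSS at position 25328684, and those of NR3C1 to position 142762495. All 3 hexamers thus lie on the side of that TSS toward which the gene is transcribed. Whether they fall in an exon or an intron was not analysed here, since no hg18 annotation was used.

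The NR3C1 hexamer held the most reads of any nuclear site in all 4 GR tables. In the GR library 3324 reads covered the half-site cytosine and 3393 the complement cytosine. The IgG control had 379 and 477 reads there. The median of the other nuclear sites was 4 reads in each of these tables, which is also the lowest depth that the authors kept. The deepest other nuclear site had 238 and 374 reads in the GR library. With IgG it had 101 and 99. NR3C1 thus had 14.0 and 9.07 times the reads of the deepest other nuclear site in the GR library, and 3.75 and 4.82 times in the IgG control.

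Among complement cytosines, the DNMT3A hexamers came next in the GR library but not in the IgG control. Their complement cytosines had 498 reads (8129 bp from the TSS) and 478 reads (5618 bp), which was rank 2 and rank 3 of 6876 nuclear sites. In the IgG control the same cytosines had 10 and 13 reads, rank 7 and rank 6 of 583. The half-site cytosines of the IgG control had 11 and 10 reads, rank 8 and rank 10 of 2066. Neither was listed among the sites of the GR library used here. The DNMT3A depth in the IgG control was between 2.50 and 3.25 times the median of the other nuclear sites. For the complement cytosines of the GR library it was 124.5 and 119.5 times. With mitochondrial and unplaced sequence counted too, NR3C1 kept rank 1 in all 4 tables, and the DNMT3A cytosines of the GR library moved to rank 6 and 7.

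**Figure D1:**
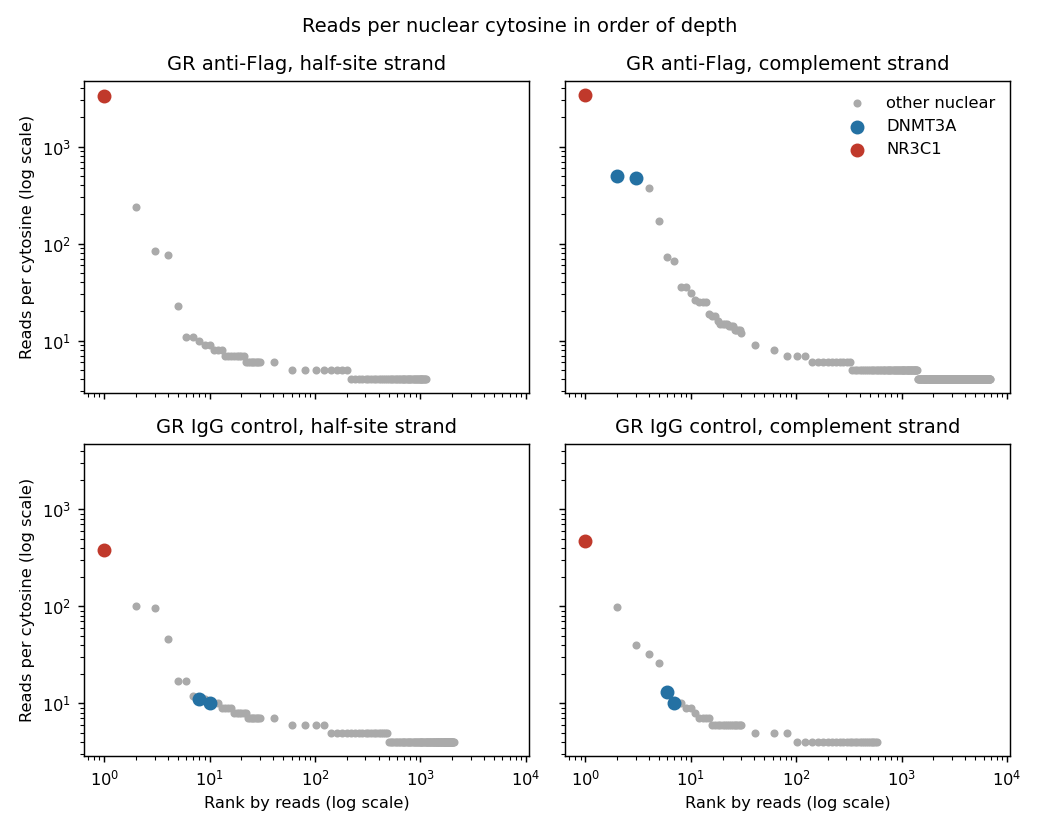
Reads per cytosine (log scale) against the rank by reads (log scale) for the nuclear cytosines of the 4 GR tables, by library and by strand of the hexamer (half-site strand agaaCa, complement strand tgttCt). Each point is 1 cytosine, and beyond rank 30 only 1 other nuclear cytosine in 20 is drawn. NR3C1 has rank 1 in each panel. DNMT3A has rank 2 and 3 among the complement cytosines of the GR library, with no half-site value there, and rank 6 to 10 in the IgG control.

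The share of the nuclear reads taken up by both genes ranged from 4.17 to 39.0% over the 4 GR tables, and DNMT3A made up at most 2.81%. NR3C1 alone held 39.0% of the nuclear reads of half-site cytosines in the GR library, against 3.95% in the IgG control. For complement cytosines the order was the opposite, with 9.77% (GR) and 15.2% (IgG). The GR library listed 6876 nuclear complement cytosines and the IgG control 583, so these shares have very unequal denominators.

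No other listed site near the hexamers was deep. Within 1 Mb of the NR3C1 hexamer, the GR library had 3 other listed sites, all on the complement strand and all with 4 reads, and the nearest lay 283485 bp away at HMHB1. The IgG control listed no other site in that window. Around the DNMT3A hexamers the GR library had 2 half-site and 3 complement sites, again with 4 reads each, and the nearest was at POMC, the precursor gene of ACTH, 55253 bp from the second hexamer. The IgG control listed 1 site there, at ADCY3, with 1 of 4 reads methylated.

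Both strands of the NR3C1 hexamer were read almost equally in the GR library. The complement cytosine had 1.02 times the reads of the half-site cytosine (exact 95% interval 0.973 to 1.07), an interval that includes equal reads. In the IgG control this ratio was 1.26 (interval 1.10 to 1.44), which lies above equal reads by more than counting error. For DNMT3A the ratio could be taken in the IgG control alone, at 0.909 (interval 0.346 to 2.36) for the second hexamer and 1.30 (interval 0.527 to 3.31) for the first. These intervals cover counting error only, because reads that share a PCR origin are not independent molecules.

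A partner cytosine was often missing from the half-site table of the GR library. Of its 5 nuclear complement cytosines with 100 or more reads, 3 lay at NR3C1 or DNMT3A, and the half-site cytosine was listed for NR3C1 but for neither DNMT3A hexamer. In all, 2 of the 5 had a listed partner. With 20 or more reads, 5 of 14 complement cytosines (GR) and 4 of 5 (IgG) had one.

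Almost no read at NR3C1 was methylated in the GR library. There 9 of 3324 reads of the half-site cytosine were methylated, a level of 0.271% (exact Clopper-Pearson 95% interval 0.124 to 0.513%), and 7 of 3393 reads of the complement cytosine, 0.206% (interval 0.0830 to 0.425%). The DNMT3A complement cytosines had 1 of 498 methylated reads, 0.201% (interval 0.00508 to 1.11%), and 2 of 478, 0.418% (interval 0.0507 to 1.5%). All 4 values lie within each other's intervals.

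In the IgG control the NR3C1 levels were higher, as were the pooled levels of mitochondrial and of other nuclear sites. The NR3C1 values were 14 of 379 reads, 3.69% (interval 2.03 to 6.12%), for the half-site cytosine and 26 of 477 reads, 5.45% (interval 3.59 to 7.88%), for the complement cytosine. The DNMT3A half-site cytosines had 0 methylated of 11 reads at 8126 bp, where levels up to 27.3% remain possible, and 1 of 10 at 5621 bp. The complement cytosines had 0 of 10 at 8129 bp, where the limit is 30%, and 1 of 13 at 5618 bp, or 7.69%. With 10 to 13 reads, a level as low as that of the GR library could not have been told from one of several percent.

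**Figure D2:**
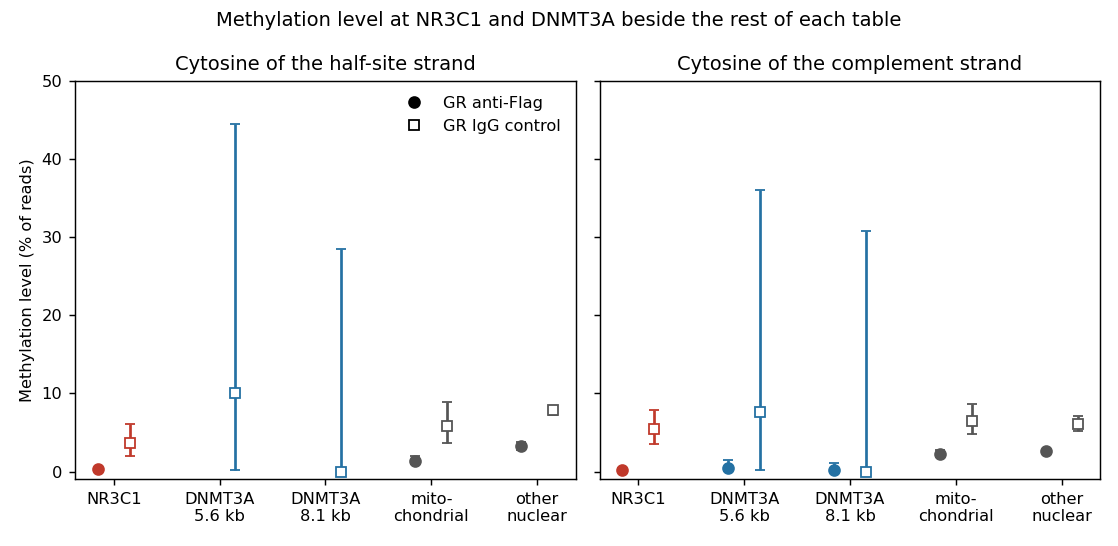
Methylation level (percent of reads) at each NR3C1 and DNMT3A half-site cytosine (left) and complement cytosine (right), beside the pooled level of mitochondrial and of other nuclear sites of the same table. Filled circles are the GR library, open squares are the IgG control, bars are exact 95% intervals, and DNMT3A is labelled by distance to the TSS. NR3C1 lies at 0.271 and 0.206% in the GR library and at 3.69 and 5.45% in the IgG control, and no DNMT3A half-site value of the GR library is drawn.

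Both NR3C1 cytosines differed in level between the GR library and its IgG control. IgG reads exceeded anti-Flag reads in level by 3.42 percentage points at the half-site cytosine (Fisher's exact test, two-sided, Benjamini-Hochberg adjusted p = 1.46e-07 over the 77 cytosines read in both libraries). At the complement cytosine the difference was 5.24 points (the same exact test, adjusted p = 1.77e-16). Over all cytosines tested, 7 of 77 passed with more methylation in the control (9.09%) and 0 of 77 in the other direction (0%). The DNMT3A cytosines did not pass. That at 5618 bp had an adjusted p of 0.459 and that at 8129 bp an adjusted p of 1 in this exact test.

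The direction was not particular to NR3C1. The other sites that passed were 4 mitochondrial ones and 1 on chromosome 6 with GUSBL2 as its nearest gene, 490055 bp from the TSS. This last site had 1 of 374 methylated reads (GR) and 6 of 99 (IgG) (adjusted p = 0.00554, exact test). As an odds ratio of methylated reads, IgG over anti-Flag, NR3C1 had 20.5 (exact 95% interval 11.2 to 39.4) over its 2 sites. The 40 other nuclear sites read in both libraries had 9.62 (interval 4.51 to 22.9), and 13 mitochondrial sites had 3.36 (interval 2.45 to 4.57). The 20 unplaced sites had 0 of 338 methylated reads with anti-Flag and 9 of 186 with IgG. Their odds ratio was infinite, with a lower bound of 3.71. The NR3C1 interval overlaps that of the other nuclear sites and lies above that of the mitochondrial sites. The difference of these odds ratios was not tested.

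Pooled over all of its sites in each library, NR3C1 had 16 of 6717 methylated reads with anti-Flag (0.238%, interval 0.136 to 0.387%) and 40 of 856 with IgG (4.67%, interval 3.36 to 6.31%). This difference passed (Fisher's exact test, two-sided, adjusted p = 2.26e-25 over 8 pooled comparisons). DNMT3A had 3 of 976 methylated reads (0.307%, interval 0.0634 to 0.896%) and 2 of 44 (4.55%, interval 0.555 to 15.5%), and passed with all its sites (exact test, adjusted p = 0.0335). With only the 2 cytosines listed in both libraries it no longer did (exact test, adjusted p = 0.170). The 8 comparisons were chosen for these genes, and 4 of them passed (50%).

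No difference between NR3C1 and DNMT3A was detectable at this depth. The pooled level of DNMT3A was 0.0692 percentage points above that of NR3C1 in the GR library, with an odds ratio of 1.29 (exact 95% interval 0.241 to 4.52, Fisher's exact test, adjusted p = 0.967). With IgG the difference was -0.127 points, and the odds ratio was 0.971 (interval 0.110 to 3.98, exact test, adjusted p = 1). These intervals are wide enough to allow a several-fold difference in either direction.

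No difference in level between the strands of a hexamer was detectable either. For NR3C1, complement minus half-site, it was -0.0645 percentage points with anti-Flag and 1.76 points with IgG, and neither passed (Fisher's exact test, two-sided, adjusted p = 1 in both). Both DNMT3A hexamers of the IgG control also had an adjusted p of 1 in this exact test. Over all hexamers with both cytosines listed, 2 of 20 passed with anti-Flag (10%) and 0 of 28 with IgG (0%).

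Beside the other nuclear sites of its own table, NR3C1 had a low level in the GR library. The pooled level of those sites was 3.24% (interval 2.78 to 3.76%) for half-site and 2.61% (interval 2.43 to 2.80%) for complement cytosines. NR3C1 differed by -2.97 points from the first (Fisher's exact test, two-sided, adjusted p = 1.60e-23 over the table) and by -2.40 points from the second (exact test, adjusted p = 1.44e-24). The DNMT3A site at 8129 bp also passed (exact test, adjusted p = 0.00652), whereas that at 5618 bp just missed (adjusted p = 0.0539) and passed only against other sites with at least 10 reads (exact test, adjusted p = 2.44e-54), of which 19 of 37 had a level of 50% or above. Few sites can pass in this direction, since most have 4 reads: those called lower were 2 of 1149 half-site cytosines (0.174%) and 4 of 6958 complement cytosines (0.0575%), of which 3 were mitochondrial and the rest lay at NR3C1 and DNMT3A. Sites called higher made up 1.13 and 1.15%.

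These calls were lost without the highly methylated sites of the table. When other nuclear sites at a level of 50% or above were left out, 14 half-site and 107 complement cytosines in the GR library, the pooled level of the remaining sites was 0.534 and 0.314%. No NR3C1 or DNMT3A site was then called (Fisher's exact test, adjusted p = 1 for all 4). The other deep nuclear sites of the GR library varied in level. Those with GUSBL2 as nearest gene, all of 1 locus, lay 490052, 490055 and 490316 bp from the TSS. They had 1 of 238 methylated reads (0.420%), 1 of 374 (0.267%) and 1 of 171 (0.585%). Their deposited sequence was in lower case, and that of the NR3C1 and DNMT3A hexamers in upper case. In the hexamers printed above, case marks only the measured cytosine. The site with FLJ43980 as nearest gene, 148474 bp from the TSS, had 4 of 85 (4.71%, interval 1.30 to 11.6%), above the upper bounds of NR3C1. That with GGT8P as nearest gene, at 357760 bp, had 1 of 73 (1.37%, interval 0.0347 to 7.40%). At the other end, 75 of 76 reads were methylated at FN1, the fibronectin gene, which had rank 4 in the half-site table.

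In the IgG control neither gene was called different from the other nuclear sites. The pooled level of those sites was 7.83% for half-site and 6.14% for complement cytosines, so the NR3C1 levels of 3.69 and 5.45% lay below both, without passing (Fisher's exact test, adjusted p = 0.440 and 1). Set against only those other nuclear sites with at least 10 reads, 9 half-site and 5 complement cytosines, NR3C1 did pass, at differences of -11.3 and -13.9 points (exact test, adjusted p = 1.21e-04 and 2.38e-05). Few sites carried this call: 2 of the 9 and 1 of the 5 had a level of 50% or above, the last of them at WDR74 with 32 of 32 reads. Without these, the others had a level of 8.70 and 4.57%, the latter under the 5.45% of NR3C1. FLJ43980, with 14 of 97 methylated reads, was the third by depth among the nuclear half-site cytosines. No site of these tables was called lower, 0 of 2100 and 0 of 615 (0%), and 2 sites in each were called higher (0.0952 and 0.325%).

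Mitochondrial sites, which are also deeply read, gave a second reference. In the GR library 13 of them had 152 of 7592 methylated reads (2.00%, interval 1.70 to 2.34%). This was above NR3C1 by 1.76 points (Fisher's exact test, adjusted p = 2.26e-25) and above DNMT3A by 1.69 points (exact test, adjusted p = 4.62e-05). Single mitochondrial sites ranged from 0 to 35.1%. Without the 2 sites with the most methylated reads the level was 1.23% over 11 sites, and both differences still passed (exact test, adjusted p = 3.11e-11 for NR3C1 and 0.0194 for DNMT3A), an alternative chosen after seeing the data. In the IgG control 16 mitochondrial sites had a level of 6.32%, and neither NR3C1 (exact test, adjusted p = 0.211) nor DNMT3A (adjusted p = 1) passed against it.

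Reads at the DNMT3A complement cytosines differed far more between the libraries than reads at NR3C1. The DNMT3A half-site cytosines had 11 and 10 reads with IgG and were not listed in the GR library. No ratio could be taken for them. The GR library had 49.8 times the reads of the IgG control at the DNMT3A cytosine 8129 bp from the TSS (exact 95% interval 26.9 to 104) and 36.8 times at that of 5618 bp (interval 21.3 to 69.6), ranks 1 and 2 of the 77 cytosines read in both. At NR3C1 the ratio was 8.77 for the half-site cytosine (interval 7.88 to 9.78) and 7.11 for the complement cytosine (interval 6.46 to 7.85), ranks 11 and 14. A ratio of at least 5 was reached at 17 of 77 cytosines (22.1%), namely all 4 of these, 10 of 13 mitochondrial, 2 of 20 unplaced and 1 of 40 other nuclear cytosines. No p-value is given, since depth was measured in 1 library of each kind.

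The 3 other nuclear cytosines with the highest ratios were those nearest GGT8P (9.13, interval 4.39 to 21.9, with 73 against 8 reads), GUSBL2 (4.28, interval 3.01 to 6.19, with 171 against 40 reads) and BTBD3 (3.80, interval 1.37 to 13.0, with 19 against 5 reads). Their ratios lie near those of NR3C1 or below them and under the lower bounds of DNMT3A, though the wide interval of GGT8P reaches the lower DNMT3A one. Over the 40 other nuclear cytosines the median ratio was 1.25.

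**Figure D3:**
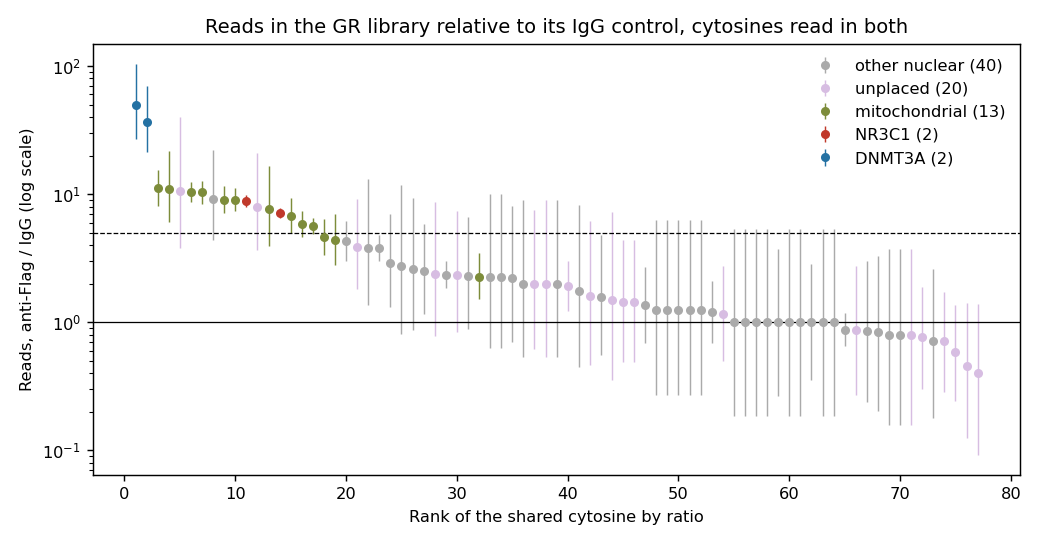
Ratio of reads in the GR library to reads in its IgG control (log scale) for the 77 cytosines read in both, in order of the ratio. Points are cytosines coloured by class with the number of each in the legend, bars are exact 95% intervals, the solid line marks equal reads and the dashed line a ratio of 5. DNMT3A, on the complement strand only, lies at 49.8 and 36.8, above all others, and NR3C1 at 8.77 and 7.11 among the mitochondrial cytosines.

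The ratio depended on what the libraries were divided by, and each scaling moved the complement cytosines of both genes by the same factor. Divided by the other nuclear cytosines read in both libraries, whose summed ratio was 2.27, NR3C1 stood at 3.86 and 3.13 and DNMT3A at 21.9 and 16.2. Divided by the mitochondrial cytosines, whose summed ratio was 7.63 (interval 7.14 to 8.16), NR3C1 stood at 1.15 (interval 1.03 to 1.28) and 0.932 (interval 0.847 to 1.03), and DNMT3A at 6.53 (interval 3.52 to 13.7) and 4.82 (interval 2.79 to 9.12). Divided by all other nuclear sites of the same table, NR3C1 stood at 15.5 for the half-site and 0.618 for the complement cytosine, and DNMT3A at 4.33 and 3.20. The factor of this last scaling was 11.5 for complement and 0.567 for half-site cytosines. Which cytosines crossed equal reads thus followed from their unscaled ratios: the NR3C1 complement cytosine did under the last 2 scalings, and the DNMT3A cytosines did under none of the 3.

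Set against each other within a library, the genes differed most in the IgG control. The NR3C1 complement cytosine had 6.81 times the reads of the DNMT3A one at 8129 bp in the GR library (exact 95% interval 6.20 to 7.50) and 47.7 times in the IgG control (interval 25.7 to 100.1). These ratios need no scaling between libraries, and their intervals do not overlap. Against the DNMT3A cytosine at 5618 bp they were 7.10 (interval 6.45 to 7.83) and 36.7 (interval 21.3 to 69.4). Within the GR library the 2 DNMT3A cytosines had like depths, with a ratio of 1.04 (interval 0.917 to 1.18).

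E-boxes were read at NR3C1 alone in the BMAL1-CLOCK library. The cytosine measured there is the first of cacgtg. At position 142774353 of chromosome 5, on the minus strand and 10115 bp from the nearest TSS, 0 of 5 reads were methylated, so levels up to 60% remain possible. At position 142960956, also on the minus strand and 165686 bp from a TSS, 0 of 4 were, with a limit of 75%. Neither stood out in depth, at rank 855 and 1925 of 4343 nuclear sites against a median of 4 reads. The deepest others were SPDYE2 with 21 reads, BC071797 with 19 and FAM89A with 14. Neither was called different from the pooled level of 1.23% of the others (Fisher's exact test, adjusted p = 1 for both). In this library 0 of 4353 sites were called lower (0%) and 2 higher (0.0459%). No DNMT3A site was among those of the BMAL1-CLOCK tables, which list E-boxes only, so the half-site hexamers could not appear there. Whether the DNMT3A vector, which these cells carried too, holds an E-box was not analysed here. Both cytosines of the BMAL1-CLOCK IgG control lay at RMRP.

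RefSeq promoter windows, from 250 bases before to 50 after a start, held no half-site for either gene. AGAACA or TGTTCT was in 0 of 7 NR3C1 and 0 of 6 DNMT3A windows, against 14.8% of 35116 windows of all genes. CACGTG, which reads the same on both strands, was in 0 NR3C1 windows and in 2 overlapping DNMT3A windows, against 7.26% of all. These hold the same E-box, shown in capitals to place it beside the library in which no DNMT3A E-box was listed.
DNMT3A promoter, chr2:25252373-25252402 in GRCh38.p14, minus strand: tccagcggggccCACGTGacctggagtcct

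Other genes of the same pathways had 4 to 8 reads per site, against a median of 4 for the other nuclear sites. Of the other nuclear sites, 96.6% of half-site and 97.2% of complement cytosines had no methylated read in the GR library. The share was 81.0% for complement cytosines of the IgG control and 94.4% in the BMAL1-CLOCK library. Of 18 further genes of GR signalling, 5 had a site in any table, with 9 values of 4 to 8 reads and 0 of 44 reads methylated. In the GR library these were FKBP5, a co-chaperone of GR, with 0 of 8 reads at 460 bp and 0 of 5 at 48270 bp, the corepressor NCOR1 with 0 of 5 and 0 of 4 reads, and the coactivators NCOA2 with 0 of 4 and MED1 with 0 of 6. NR3C2, the mineralocorticoid receptor gene, had 0 of 4 reads in the IgG control and 0 of 4 at each of 2 E-boxes.

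Of 16 further genes of DNA methylation, 3 had a site, with 9 values of 4 to 6 reads and 0 of 40 reads methylated. Here too, most other nuclear sites of the same tables had no methylated read. The 3 genes were TET2, which oxidises methylated cytosine, ZBTB33, which encodes the methyl-binding protein Kaiso, and HELLS, a chromatin remodeller. In the GR library ZBTB33 had 0 of 6 reads at 1281 bp and 0 of 4 at 6104 bp, TET2 had 0 of 4, and HELLS had 0 of 4 at each of 2 cytosines. None of these sites of either list was called different from the rest of its table, but with so few reads, all unmethylated, none could have been. In the GR library 0.174 and 0.0575% of half-site and complement cytosines were called lower, and 1.13 and 1.15% higher. ARNTL, which encodes BMAL1, and CLOCK, the factors transfected in the other cells, had no site in these tables.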

How the data were processed

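Per the study's methods, reads from 2 runs were merged for each library, Bismark placed them on hg18 without counting overlapping mates more than once, and SAMtools took out duplicates; tool versions: not given in the sources used here. Each of the 6 deposited tables gives raw counts by the authors, methylated and total, for half-site, complement or E-box cytosines with 4 or more reads. Whether a cytosine that is not listed had fewer reads was not tested. Here repeated rows with identical counts, 2075 and 344 in the GR tables, were dropped. Nuclear means chromosomes other than the mitochondrial and unplaced sequence, and other nuclear sites exclude NR3C1 and DNMT3A. Single sites were tested by Fisher's exact test, two-sided, adjusted by Benjamini-Hochberg over all sites tested, with a threshold of 0.05. Where no read was methylated, the limit is the level at which 3 counts would be methylated. The genes, lists and tests were chosen with earlier results of these data known, and named sites follow a rule: all sites of both genes, the 3 deepest other nuclear sites per table, the 3 with the highest ratio of reads, and the listed pathway genes with a site. In addition, 1 gene of the lists is not reported here and is in none of their counts. RMRP, HMHB1, POMC and ADCY3 were named after their values were seen. Alternatives changed the coverage minimum, background, scaling, thresholds, repeated rows and distance limit. The scripts were tested on simulated data, with planted differences in level larger than any reported here for NR3C1 or DNMT3A. Distinct sites held 10973 and 40545 reads in the GR tables (half-site, complement), 10129 and 4014 in the IgG tables, and 21042 in the BMAL1-CLOCK table. Library depth outside these sites is unknown. Distances to the TSS are the authors' deposited values. Analyses ran in Python 3.11.15 with pandas 2.3.3 and scipy 1.17.1.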

Additional observations from a re-analysis of the deposited data

How the results depend on the processing

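No paired analysis was possible because each group holds 1 library. Sites called different in level from the rest of their table numbered 105, and 67 when only other sites with at least 10 reads formed the background. Against that background the DNMT3A cytosines at 5621 and 5618 bp in the IgG control turned from above to below it (by -4.95 and -11.6 points). Against other sites below 50% only, the DNMT3A cytosine at 5618 bp in the GR library turned to 0.104 points above and the NR3C1 complement cytosine in the IgG control to 1.43 points above, none of them past the threshold. Cytosines with a different level between GR and IgG numbered 7 of 77 and 3 of 44 among nuclear ones only. Those with at least 5 times the reads numbered 17 unscaled, 2 when divided by other nuclear shared sites, 6 by all other nuclear sites of the table and 1 by mitochondrial sites, and the NR3C1 complement cytosine turned to 0.618 and 0.932 under the last 2. A threshold of 2 or 10 gave 39 or 7. NR3C1 and DNMT3A values among the 5 deepest nuclear sites of their GR table numbered 6, and 10 within 100 kb of a TSS. The cause of these changes was not tested. The DNMT3A levels of the IgG control rest on 10 to 13 reads per cytosine.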
